A study of Rattus norvegicus with 4 samples.

Results

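Neuropeptides are made as longer precursor proteins that pass through the secretory pathway, are cut at basic residues and are released from dense-core vesicles to act on G protein-coupled receptors. The 5 precursor genes described here were taken by name, as every transcript in the deposited table whose symbol is Sst, Nts, Tac1, Hcrt or Pdyn, and each gene had a single listed transcript, which gives 5 of the 830 transcripts in the table. Sst encodes somatostatin, an inhibitory peptide of interneurons that contact pyramidal cell dendrites. Nts encodes neurotensin, and Tac1 encodes the tachykinins substance P and neurokinin A. Hcrt encodes the orexins (hypocretins), whose cell bodies lie in the lateral hypothalamus and whose axons reach many forebrain areas. Pdyn encodes the dynorphins, which act on the kappa opioid receptor and are known from the granule cells of the dentate gyrus and their mossy fibres.

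RNA-seq was run on hippocampus punched from frozen brains of male Wistar rats at postnatal day (PND) 128, with 2 samples per group and 2 rats pooled in each sample. One group had been gavaged with fluoxetine, a selective serotonin reuptake inhibitor, at 12 mg/kg per day over PND 67 to 88, and the vehicle group had received 1% methylcellulose over the same days. The question put to these samples was which hippocampal transcripts still differ long after chronic treatment has stopped. The library totals worked out from the deposited values were between 12512597 and 14080347 reads, and the listed transcripts held 1.03 to 1.17% of them. The table holds only transcripts that had passed the authors' p-value and fold-change thresholds in these same 4 samples, so each of the 5 genes had been selected for a difference, and neither its direction nor its p-value is independent evidence. With 2 against 2 samples, an exact permutation test cannot give a two-sided p below 0.33. Reads are given as counted, and levels between genes are compared by normalized expression (NE), the authors' read density per transcript length and data set size. Bulk tissue cannot tell fewer cells of a type from less RNA per cell.

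The promoters of Sst, Nts and Pdyn, the 3 genes with over 100 reads in every sample, are shown so that the genes higher after fluoxetine can be read beside the one that was lower. Each window runs from 250 bases before to 50 bases after the start of the gene in RefSeq (build GRCr8), 5′ to 3′ on the strand of the gene, and lies at chr11:90461296-90461595 (plus strand) for Sst, at chr7:39460839-39461138 (minus strand) for Nts and at chr3:137366454-137366753 (minus strand) for Pdyn. Capitals mark TGACGTCA (the cAMP response element, known as a CREB site of the somatostatin gene), its shorter part TGACG, the AP-1 element TGACTCA, and the TATA box motif TATAAA, each on either strand.
Sst: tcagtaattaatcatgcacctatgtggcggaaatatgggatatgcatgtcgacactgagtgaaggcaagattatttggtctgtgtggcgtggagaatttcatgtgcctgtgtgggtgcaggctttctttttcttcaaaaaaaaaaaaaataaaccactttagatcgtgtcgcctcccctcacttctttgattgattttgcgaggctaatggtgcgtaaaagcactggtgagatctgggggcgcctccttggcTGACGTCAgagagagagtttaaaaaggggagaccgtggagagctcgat
Nts: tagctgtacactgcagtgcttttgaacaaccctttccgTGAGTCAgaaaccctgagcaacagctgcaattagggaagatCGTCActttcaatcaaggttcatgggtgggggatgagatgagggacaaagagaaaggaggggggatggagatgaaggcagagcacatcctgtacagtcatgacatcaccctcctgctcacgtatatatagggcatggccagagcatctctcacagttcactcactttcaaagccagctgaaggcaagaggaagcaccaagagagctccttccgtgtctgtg
Pdyn: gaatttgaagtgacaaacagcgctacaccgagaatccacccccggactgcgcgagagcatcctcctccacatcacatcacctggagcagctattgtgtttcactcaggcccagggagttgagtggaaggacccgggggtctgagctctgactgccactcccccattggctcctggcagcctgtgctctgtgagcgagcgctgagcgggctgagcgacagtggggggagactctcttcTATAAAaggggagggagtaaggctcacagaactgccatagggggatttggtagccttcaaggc

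Sst carried TGACGTCA at base 253 of its window, which 1.83% of 33469 rat promoters of the same length held on either strand. This match began 2 bases after the start of the gene in RefSeq, not before it, and where transcription starts was not examined here. Nts carried TGAGTCA, the AP-1 element read on the other strand, at base 39, and 4.63% of the promoters held this element. TGACG, which every TGACGTCA contains, was present in the windows of Sst, Nts and Tac1 and in 21.2% of all promoters. The windows of Hcrt and Pdyn held TATAAA, as did 14.2% of all promoters. These matches describe letters in a window, and no binding or activity was measured at them.

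Sst was by far the most abundant of the 5 genes, and Nts, Tac1 and Hcrt, like Sst, had higher mean levels in the fluoxetine samples, while Pdyn had a lower one. From the means of the 4 samples, NE was 3.16 for Sst, 0.349 for Pdyn, 0.320 for Nts, 0.0259 for Tac1 and 0.0111 for Hcrt. Sst stood 9.06-fold above Pdyn and 284-fold above Hcrt, and it ranked at position 2 of all 830 listed transcripts by mean NE. Pdyn and Nts could not be ordered, since Pdyn was the higher one in 3 of the 4 samples and Nts in fluoxetine sample 2. Nts exceeded Tac1 12.3-fold and in every sample. Tac1 and Hcrt differed 2.33-fold in their means, in the same order in 4 of 4 samples, but their ranges overlapped.

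**Figure D1:**
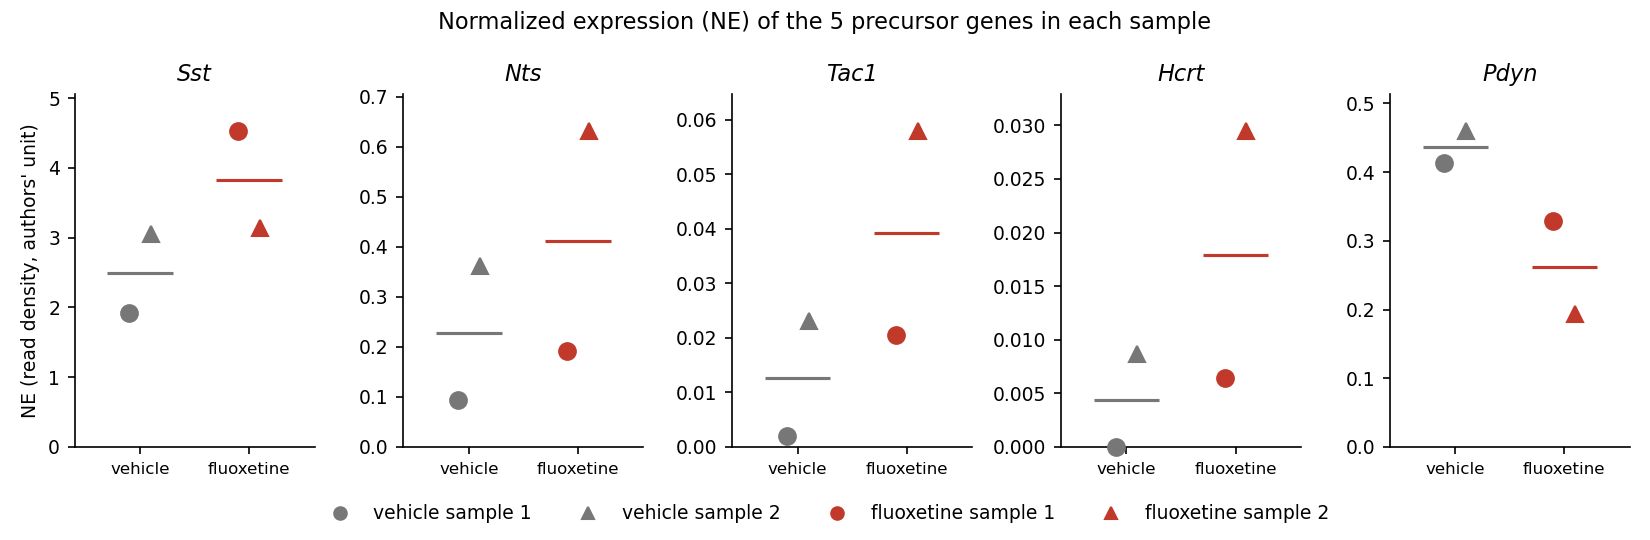
NE of each precursor gene in the 4 samples, on linear axes that start at 0, where grey is vehicle, red is fluoxetine, a circle is sample 1, a triangle is sample 2, and a horizontal line is the mean of a group of 2. The fluoxetine samples lie above both vehicle samples for Sst (3.14 against 3.05 at the nearest) and below both for Pdyn (0.329 against 0.414 at the nearest), and the groups overlap for Nts, Tac1 and Hcrt.

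Sst is a gene of 2 exons on chromosome 11 of rn4, from 79125031 to 79126216. Fluoxetine samples 1 and 2 had 3599 and 2398 reads, and vehicle samples 1 and 2 had 1524 and 2156. Fluoxetine sample 1 was high and vehicle sample 1 was low, and the remaining pair were close to each other. In NE these were 4.52 and 3.14 against 1.93 and 3.05, with group means of 3.83 ± 0.978 and 2.49 ± 0.795 (SD, n = 2). The groups did not overlap in NE, but in reads normalized by TMM over the listed transcripts fluoxetine sample 2 (2138) lay below vehicle sample 2 (2290). A single fluoxetine sample stood between 1.03 and 2.35 times a single vehicle sample in NE. The log2 fold change was 0.54 (standard error 0.51, adjusted p = 0.377 from edgeR), and it was 0.12 without fluoxetine sample 1 and 0.32 without vehicle sample 1. The summed reads per library read gave a ratio of 1.57 with a 95% interval of 1.503 to 1.633 (exact binomial, counting error only). Counting error was thus narrow for Sst, and the spread between pools was wider, as fluoxetine sample 2 had 0.694 times the read share of fluoxetine sample 1.

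Nts, with 4 exons on chromosome 7 from 40474654 to 40484058, varied more within the groups than between them. Fluoxetine samples 1 and 2 had 216 and 680 reads, and vehicle samples 1 and 2 had 106 and 361. Sample 2 was the high one in each group, and vehicle sample 2 exceeded fluoxetine sample 1. Within the fluoxetine group the samples differed 3.28-fold per library read (95% counting interval 2.81 to 3.84, exact) and within the vehicle group 3.81-fold (3.06 to 4.78), where the group means of NE, 0.411 ± 0.310 and 0.228 ± 0.189 (SD, n = 2), differed 1.80-fold. Among 407 transcripts with at least 20 normalized reads on average, 3.19% differed at least as far between the samples of both groups. The log2 fold change of Nts was 0.72 (standard error 0.84, adjusted p = 0.449 from edgeR). It was -0.34 without fluoxetine sample 2, 0.10 without vehicle sample 1, 1.29 without fluoxetine sample 1 and 2.02 without vehicle sample 2. In these sequenced samples its direction thus rested on fluoxetine sample 2. The study also reported Nts as higher after fluoxetine by quantitative PCR in a separate group of rats treated as adults, whose data were not examined here. Those rats had been food-deprived for a feeding test after treatment and were killed at an earlier age than the sequenced rats.

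Tac1 and Hcrt had few reads. The listed Tac1 transcript, 5 exons on chromosome 4 from 32650188 to 32657085, carries a macaque Ensembl accession and is 345 bases long. Fluoxetine samples 1 and 2 had 10 and 27 reads, and vehicle samples 1 and 2 had 1 and 10. Fluoxetine sample 1 and vehicle sample 2 had the same number of reads, and vehicle sample 1 was the low one. The means of NE were 0.0393 ± 0.0264 and 0.0126 ± 0.0149 (SD, n = 2), and the log2 fold change was 1.52 (standard error 1.06, adjusted p = 0.267 from edgeR). The 37 reads of the fluoxetine samples against 11 of the vehicle samples gave a ratio per library read of 3.23 with a 95% counting interval of 1.62 to 7.03 (exact). Without vehicle sample 1 the log2 fold change was 0.68 and without fluoxetine sample 2 it was 0.62. Without vehicle sample 2 a single vehicle read was left, and the ratio became 18.8 (95% counting interval 3.17 to 762, exact).

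Hcrt, 2 exons on chromosome 10 from 89699633 to 89700844, had 5 reads in fluoxetine sample 1 and 22 in fluoxetine sample 2, with 0 in vehicle sample 1 and 6 in vehicle sample 2. As for Nts and Tac1, fluoxetine sample 2 was the highest and vehicle sample 1 the lowest, and the groups overlapped. The 0 reads of vehicle sample 1 allow up to 3 reads, or an NE of 0.00387, against 0.00642 in fluoxetine sample 1. Mean NE was 0.0179 ± 0.0163 and 0.00434 ± 0.00613 (SD, n = 2), and the log2 fold change was 1.91 (standard error 1.44, adjusted p = 0.299 from edgeR), the largest of the 5 genes and the least precise. By counting error alone, the ratio of 27 to 6 reads per library read was 4.33 (95% interval 1.75 to 12.8, exact). Leaving out fluoxetine sample 2, vehicle sample 1 or fluoxetine sample 1 gave log2 fold changes of 0.49, 0.94 and 2.57. Without vehicle sample 2, Hcrt was at least 3.81-fold higher in the fluoxetine samples in TMM-normalized reads, taking 3 reads for the vehicle sample at 0. Of 28 genes of hypothalamus other than Hcrt and Pdyn, among them Pmch, Oxt, Avp and Pomc, 0 were listed. Pdyn, which is also on that list, had a lower mean NE in the fluoxetine samples, unlike Hcrt. Reads of hypothalamic tissue could thus not be measured here by genes outside the 5.

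Pdyn, with 3 exons on chromosome 3 from 117292461 to 117302157, was the only one of the 5 with a lower mean after fluoxetine, and its listed transcript carries an accession that is not among the rat RefSeq transcripts of the gene. Fluoxetine samples 1 and 2 had 480 and 272 reads, and vehicle samples 1 and 2 had 601 and 596. The vehicle samples were nearly equal, and fluoxetine sample 2 was the lowest. Mean NE was 0.261 ± 0.0952 after fluoxetine and 0.436 ± 0.0323 in vehicle (SD, n = 2), and a single fluoxetine sample stood between 0.423 and 0.795 times a single vehicle sample. The log2 fold change was -0.83 (standard error 0.52, adjusted p = 0.246 from edgeR), and it ranged from -1.40 without fluoxetine sample 1 to -0.55 without fluoxetine sample 2. The read ratio was 0.604 with a 95% counting interval of 0.551 to 0.662 (exact). The difference in mean NE exceeded the SD of either group for Sst, Pdyn and, by a small margin, Tac1.

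**Figure D2:**
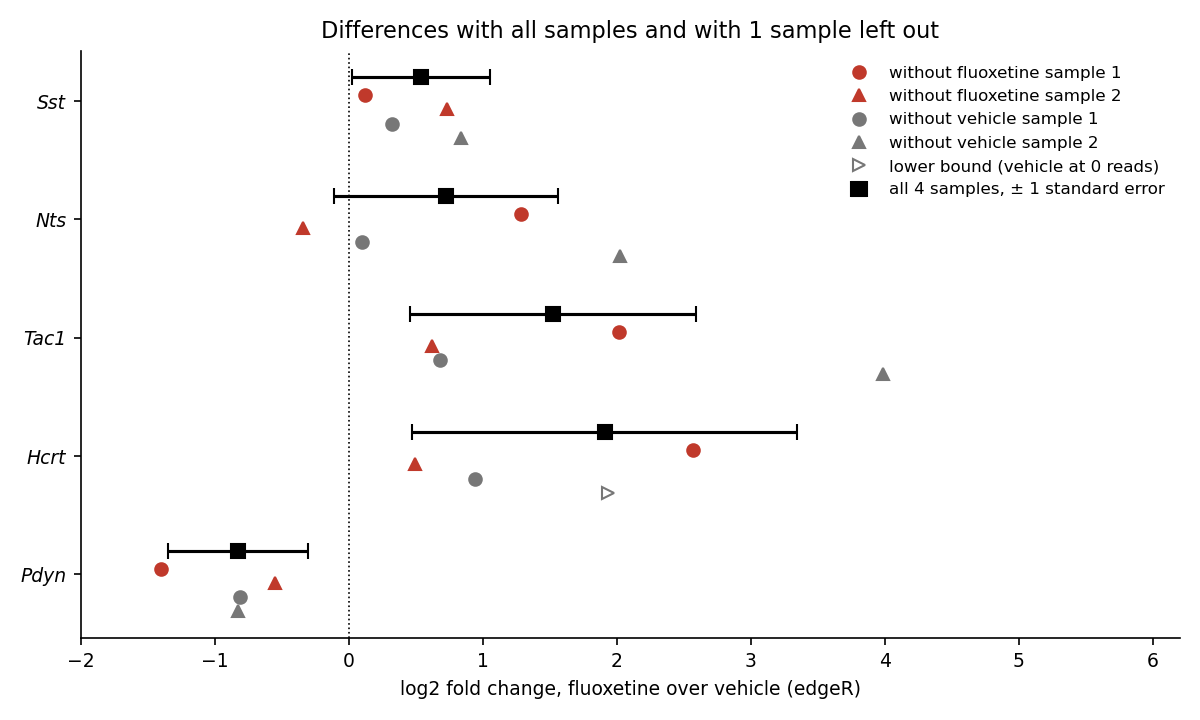
Log2 fold change of each gene (x axis, fluoxetine over vehicle) from edgeR with all 4 samples (black squares, bars of 1 standard error) and with 1 sample left out (coloured marks). The mark of Nts without fluoxetine sample 2 lies at -0.34, on the other side of 0, the other genes keep their side, and the open triangle of Hcrt is a lower bound, as the remaining vehicle sample had 0 reads.

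In edgeR's quasi-likelihood test, 0 of the 5 genes had an adjusted p under 0.05, against 0% of the 830 listed transcripts, and 0 of 5 had an unadjusted p under 0.05, against 23.6% of the listed transcripts. DESeq2 also gave 0 of 5 at either threshold, against 0% of the listed transcripts for the adjusted and 1.2% for the unadjusted p. Without vehicle sample 2, edgeR gave an unadjusted p under 0.05 for 2 of 5 (Tac1 and Hcrt, which then had 1 and 0 vehicle reads), against 7.83% of the listed transcripts. In TMM-normalized reads the groups did not overlap for 0 of 5 genes in the higher direction, against 30.6% of the listed transcripts, and for 1 of 5 (Pdyn) in the lower direction, against 41.1%. In NE the groups did not overlap for 1 of 5 in the higher direction (Sst), against 34.0% of the listed transcripts, and for 1 of 5 (Pdyn) in the lower direction, against 40.1%. The median log2 fold change was 0.72 over the 5 genes and 0.49 over all 830 transcripts. TMM assumes that most listed transcripts do not differ, which cannot be taken to hold here, as every listed transcript had been selected for a difference. The fold changes and overlaps in TMM-normalized reads depend on this scaling. At the library totals the log2 fold changes of the listed transcripts were higher by a median of 0.11.

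Ratios of 2 genes within a sample do not depend on how the libraries were scaled. Of the 10 ratios among the 5 genes, 5 did not overlap between the groups, against 63.7% of the ratios between all pairs of listed transcripts. In both figures a ratio over 0 reads was taken as infinite. The count of 5 includes Nts to Hcrt, which is free of overlap only on that reading. Fluoxetine samples 1 and 2 had NE ratios of Sst to Pdyn of 13.8 and 16.2, and vehicle samples 1 and 2 of 4.65 and 6.64. The lowest fluoxetine value exceeded the highest vehicle value, and since Sst had been selected as higher and Pdyn as lower, that choice had set the direction of their ratio. Tac1 to Pdyn (0.0626 and 0.298 against 0.00500 and 0.0504) and Hcrt to Pdyn (0.0195 and 0.152 against 0 and 0.0189) were also higher in both fluoxetine samples, the latter by a narrow gap. Selection had set the direction of both these ratios as well. Nts to Tac1, both selected as higher, stood at 9.34 and 10.9 in the fluoxetine samples and at 45.8 and 15.6 in the vehicle samples, where the 45.8 rests on a single Tac1 read. Nts to Hcrt was 29.9 and 21.4 against 41.7 in vehicle sample 2, and with 3 Hcrt reads allowed in vehicle sample 1 its ratio there could be as low as 24.5, within the fluoxetine range. The ratio of Nts to Pdyn was 0.585 and 3.25 against 0.229 and 0.787, and here the groups overlapped. Sst to Nts stood at 23.5 and 4.98 against 20.3 and 8.44, which separated sample 1 from sample 2 in each group and not fluoxetine from vehicle. Tac1 to Hcrt was 3.21 and 1.97 in the fluoxetine samples and 2.67 in vehicle sample 2.

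**Figure D3:**
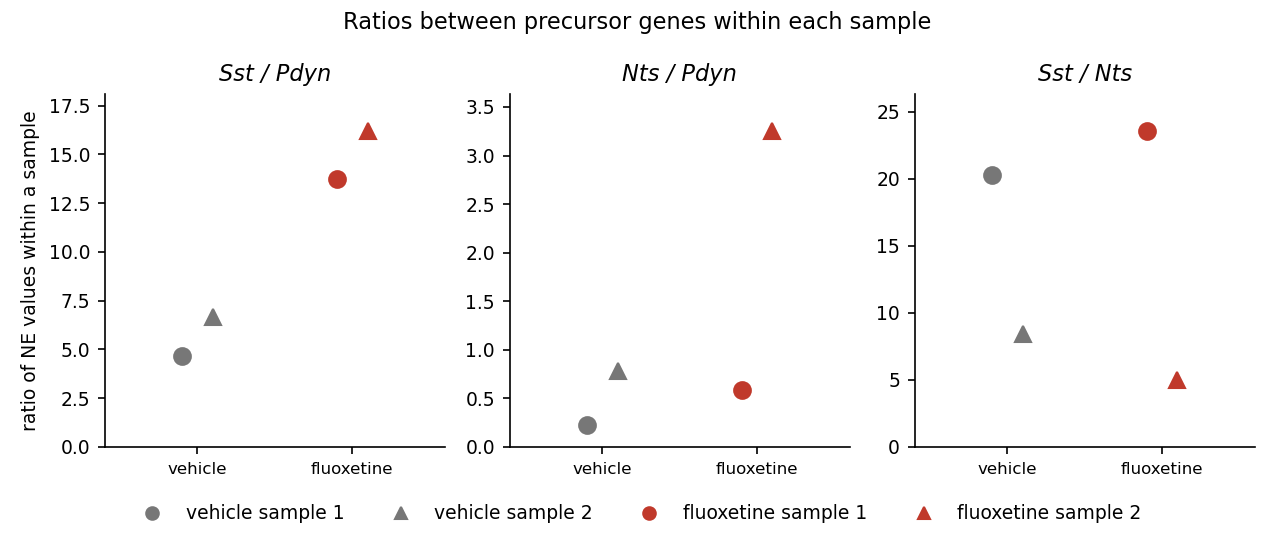
Ratio of NE values of 2 precursor genes within each sample, on linear axes from 0, where a circle is sample 1 and a triangle is sample 2. For Sst to Pdyn the fluoxetine samples (red, 13.8 and 16.2) lie above the vehicle samples (grey, 4.65 and 6.64), while for Sst to Nts the circles lie above the triangles in both groups.

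Patterns over the 4 samples were compared by the root mean square (RMS) difference of log2 normalized reads, each gene centred on its own mean, as a description with no test. Within the 5 genes, Tac1 and Hcrt (0.50) and Nts and Tac1 (0.70) were the nearest pairs, and Hcrt and Pdyn (2.40) the farthest. Outside them, Nts was most like Cplx3, a complexin of deep cortical and subicular neurons, at an RMS difference of 0.07, with 56 and 196 reads after fluoxetine and 31 and 99 in vehicle, samples 1 and 2 in that order. Next came Opalin, a myelin gene, at 0.20 and Rffl, a ubiquitin ligase, at 0.21. Sst was nearest to Fkbp8, an immunophilin family member, at 0.11, followed by RGD1563861 and RGD1309036. Pdyn was nearest to Unc5d, a netrin receptor, at 0.05, which had 275 and 158 reads after fluoxetine and 364 and 328 in vehicle, followed by Pkib, an inhibitor of protein kinase A, and Fstl4. For Tac1 and Hcrt no gene was close, as the nearest was Ccdc19 at 0.58 and 1.06.

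**Figure D4:**
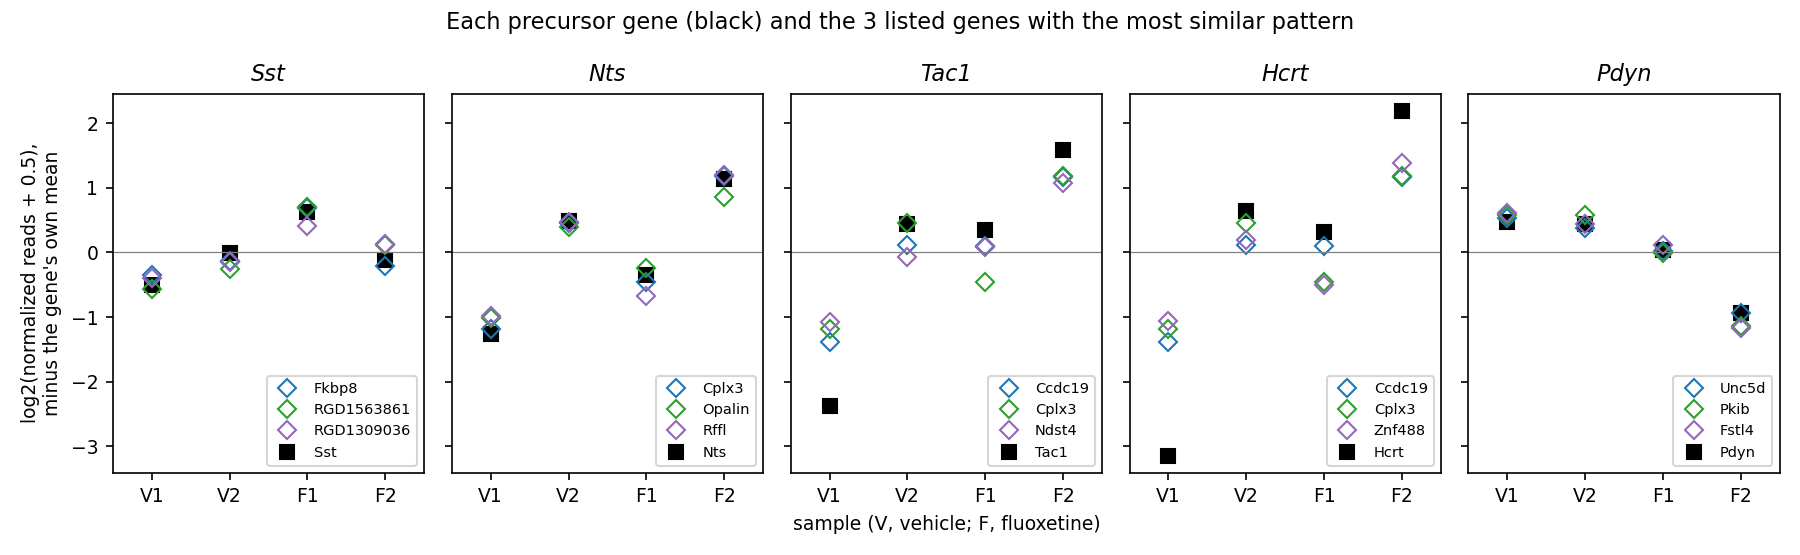
Log2 of normalized reads plus 0.5, centred on the mean of each gene over the samples (y axis), in vehicle samples V1 and V2 and fluoxetine samples F1 and F2, for each precursor gene (black squares) and the 3 listed genes nearest to it (open diamonds). Nts and Cplx3 nearly coincide (RMS difference 0.07), as do Pdyn and Unc5d (0.05), while Hcrt stands apart from its neighbours (1.06 at the nearest).

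Genes of the lists on precursors, their receptors and precursor processing were looked up in the table, which holds 476 gene identifiers. The share of all tested genes that entered the table was not worked out, so these counts are not read as few or many. The count of precursors includes the 5 genes chosen by name. Of 59 neuropeptide precursor genes, 6 were in the table, and the only one beside the 5 was Nppa, the precursor of atrial natriuretic peptide, with 35 and 72 reads after fluoxetine and 16 and 31 in vehicle, samples 1 and 2 in that order (log2 fold change 0.98, standard error 0.61, adjusted p = 0.243 from edgeR). It was highest in fluoxetine sample 2 and lowest in vehicle sample 1, as were Nts, Tac1 and Hcrt. Of 16 receptors of the peptides (such as Sstr2, Ntsr1, Tacr1, Hcrtr1 and Oprk1), 0 were listed. Of 21 genes in the list on precursor processing and secretory granules, only Cpz, carboxypeptidase Z, was in the table. It had 14 and 10 reads against 36 and 29, and the fluoxetine samples were the lower ones (log2 fold change -1.60, standard error 0.52, adjusted p = 0.19 from edgeR). Whether Cpz acts on any of the 5 precursors was not tested. Genes outside the table were not analysed here.

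Markers of cells and regions that are known to make these peptides were looked up in the same way. Of 30 inhibitory interneuron genes other than Sst and Tac1, Nos1 was listed, as a mouse Ensembl transcript of 646 bases. It had 10 and 12 reads in the fluoxetine samples against 42 and 25 in the vehicle samples. Its NE of 0.0110 and 0.0138 in the fluoxetine samples lay below 0.0464 and 0.0309 in the vehicle samples, opposite to Sst. Of 19 dentate granule cell genes other than Pdyn, Stxbp6 was listed, at an NE of 0.207 and 0.166 against 0.325 and 0.348, in the direction of Pdyn. Of 20 genes of neocortex and subiculum other than Nts, Cplx3 and Lxn were listed, and their summed NE was 0.0411 and 0.0742 after fluoxetine against 0.0147 and 0.0417 in vehicle (sample 1, then sample 2), highest and lowest in the same samples as Nts. Of 27 genes of CA1 to CA3 pyramidal cells, 5 were listed (Cpne4, Dcn, Nov, Pou3f1 and Wfs1), with a summed NE of 1.42 and 3.29 against 1.30 and 1.88. The pyramidal cell values too were highest in fluoxetine sample 2 and lowest in vehicle sample 1, so this order was not particular to genes of neocortex and subiculum. The share of all listed transcripts with this order was not counted. For the CA1 to CA3 genes the sum hides unlike members. Wfs1 made up most of this sum in vehicle and fluoxetine, 4 of the 5 had a higher fitted level after fluoxetine, and Cpne4 had a lower one, at an NE of 0.129 and 0.115 against 0.199 and 0.201. Of 15 striatal genes other than Tac1 and Pdyn, 0 were listed, and of 18 genes of thalamus and habenula other than Tac1, Prkcd and Synpo2 were listed, with a summed NE of 0.0450 and 0.0264 against 0.0627 and 0.0904. The part of cell or tissue content in the differences of the 5 genes was not tested.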

How the data were processed

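The 4 libraries were grouped by the treatment in the labels, and the columns of the table were matched to samples by treatment and number. Per the labels and the study's methods, single reads of 36 bp were aligned to rn4 with at most 1 mismatch and kept if they had 1 genomic position, and the authors deposited a read count per transcript over its exons, made with Genomatix software. The deposited NE value is a signal, in which the authors scaled reads by transcript length and data set size. Their table keeps what passed a DESeq p-value of 0.05 together with a fold change of 1.5, and its columns of p-values and fold changes were not used. For strand use in counting, the method is not given in the sources used. Library totals were worked out from reads, transcript length and NE.

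The quasi-likelihood functions glmQLFit and glmQLFTest of edgeR 4.0.16 (R 4.3.3) were run on all 830 transcripts with TMM scaling and treatment as the sole term. Low counts were kept, p-values were adjusted by Benjamini-Hochberg over the 830 transcripts, and DESeq2 1.42.0 was the alternative. The quasi-likelihood test gives no standard error. Those printed with edgeR results were worked out as the size of the log2 fold change over the square root of the test's F statistic, and are approximate. The fit was tested on simulated data in which most transcripts were unchanged and samples were independent, for transcripts at or above the median level. The deposited table differs, as every transcript had been selected, so the simulation does not show how the fit behaves on these data. Intervals are exact 95% Clopper-Pearson and, like the floor of 3 reads, cover counting error only. Summaries used Python 3.11.15 with pandas 2.3.3 and scipy 1.17.1. The members, gene lists (10 lists) and tests were chosen with earlier results of these data known. Named genes are the 5 members, listed genes of the lists on precursors, receptors and processing, and the 3 genes nearest in pattern to each member (smallest RMS difference, pseudocount 0.5, mean of at least 20 normalized reads). Pmch, Oxt, Avp, Pomc and the receptors are named only as list members that were not in the table. The listed genes of the 7 other lists are named with their values or sums, and a gene left out of these lists is not reported here. Promoters came from a RefSeq table (GRCr8), in which 5 of 5 genes were matched by gene identifier.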

Additional observations from a re-analysis of the deposited data

How the results depend on the processing

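Under DESeq2's size factors, the library totals, the DESeq2 test, a filter on low counts (edgeR's filterByExpr), 1 transcript per gene and a replicate block, each of the 5 genes kept its direction and had an adjusted p over 0.05 (from 0.191 to 0.43). Hcrt had too few reads to pass the filter and has no value there. With 1 sample left out, the log2 fold change of Nts ran from -0.34 (without fluoxetine sample 2, a change of direction) to 2.02, and the other genes kept their direction. The number of genes among the 5 with an unadjusted p under 0.05 then ran from 0 to 2, the 2 being Tac1 and Hcrt without vehicle sample 2, where the vehicle group had 1 and 0 reads and 65 of the 830 transcripts (7.83%) passed. Groups free of overlap were found for 2 of the 5 genes in NE (Sst, in the direction of 34.0% of all listed transcripts, and Pdyn, in that of 40.1%) and for 1 in TMM-normalized reads. Of the 830 transcripts, 196 had an unadjusted p under 0.05, against 10 in the DESeq2 test, 128 with the filter, 92 with 1 transcript per gene and 65 to 149 with 1 sample left out, while at an adjusted p under 0.05 the count was 0 to 1 with 1 sample left out (1 without vehicle sample 1). Samples of the same number deviated together (r = 0.63 across 407 transcripts, which are not independent replicates), but the labels do not say that the numbers pair the samples. With the replicate block the log2 fold changes were 0.51 for Sst, 0.78 for Nts, 1.74 for Tac1, 2.20 for Hcrt and -0.91 for Pdyn, 231 transcripts had an unadjusted p under 0.05, and 0 had an adjusted p under 0.05. At 6 to 37 reads per group the counting intervals of Hcrt and Tac1 are wide, and for both genes the samples within each group also differed by more than counting error, as did those of Sst and Nts.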
